A study of Mus musculus with 5 samples.

Results

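S100a8, S100a9, Trem1, Slpi, Csf3r and Lcn2 are genes for which neutrophils are known, and they were chosen by name, with earlier results of these data known. All 6 were present among the 22552 gene symbols of the deposited single-cell matrices, in each of the 3 matrices. Live CD45+ cells, that is leukocytes, were sorted and sequenced with 10x Genomics 3' RNA libraries. Melanoma line 5555 had been injected under the skin of C57BL/6 mice and the tumours were taken on day 4. The first tumour group carried Ptgs-/- 5555 cells in mice that had also received antibodies against NK1.1 and Asialo GM-1 to remove NK cells, the second carried Ptgs-/- cells in mice with their NK cells, and the last carried Ptgs+/+ cells. Ptgs genes encode cyclooxygenases, which start prostaglandin synthesis. The melanoma cells carried the deletion. Sorting on CD45 removes these, so the tumour values come from host leukocytes. CT26 tumours, grown for 12 days in BALB/c mice, gave another library. The last library held dendritic cells grown from C57BL/6 bone marrow with FLT3L and GM-CSF and harvested on day 10: with Ptgs-/- 5555 cells, with Ptgs+/+ 5555 cells, or untreated, told apart by hashtags within 1 library.

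Every group was 1 library or 1 hashtagged condition, so no test between groups was possible and every comparison describes these libraries. The labels do not say how many mice were pooled. The tumour libraries held 3879 cells (NK-depleted Ptgs-/-), 4677 cells (Ptgs-/-) and 3262 cells (Ptgs+/+), with a median of 5462, 4563 and 3633.5 unique molecular identifiers (UMIs, each counted as 1 RNA molecule) per cell. The CT26 library held 8987 cells with a median of 3821 UMIs, and the cultures held 3344 to 3884 cells with medians of 8805 to 9709 UMIs. A level is the mean over cells of CPM (UMIs scaled to the same total in every cell), and its SD is over single cells, which are not replicates. "Higher" and "lower" mean a difference past 1.5-fold in the mean, after adding 5 CPM to both. Intervals are exact 95% intervals and cover counting error only. Cell types are those of the authors' deposited annotation. Within the tumour matrix 9 barcodes were borne by 18 cells, which were left out.

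S100A8 and S100A9 are small calcium-binding proteins that pair as calprotectin. They make up a large part of the neutrophil's cytosolic protein, and once released act as alarmins, danger signals read by TLR4 and the receptor RAGE. TREM1 is a surface receptor that signals through the adaptor DAP12 (Tyrobp) and amplifies inflammatory responses of neutrophils and monocytes. CSF3R is the receptor for G-CSF, the growth factor that drives the production and survival of neutrophils. SLPI is a secreted inhibitor of neutrophil serine proteases such as elastase. LCN2, or lipocalin 2, is a granule protein that binds bacterial siderophores and so withholds iron.

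S100a8 and S100a9 lie close together on chromosome 3 of the mouse genome, in a cluster of S100 genes. In the RefSeq annotation of GRCm38.p6, S100a8 spans chr3:90669071-90670034 on the forward strand and S100a9 chr3:90692630-90695721 on the reverse strand, with 22595 bases between them. Trem1 lies at chr17:48232713-48246927 on the forward strand, and Csf3r at chr4:126023441-126044975 on the forward strand. Slpi lies at chr2:164354070-164356507 and Lcn2 at chr2:32384637-32387739, both on the reverse strand. The 250 bases before the annotated start of S100a8 (chr3:90668821-90669070, forward strand), S100a9 (chr3:90695722-90695971, reverse strand) and Slpi (chr2:164356508-164356757, reverse strand) are printed because the alarmin pair had nearly the same pattern over all cell classes, whereas Slpi had high levels in other cells as well. Capitals mark matches to TATAAA (the TATA box), GAGGAA (a PU.1 core) and TTGCNNAA (a C/EBP site), searched on both strands.
S100a8: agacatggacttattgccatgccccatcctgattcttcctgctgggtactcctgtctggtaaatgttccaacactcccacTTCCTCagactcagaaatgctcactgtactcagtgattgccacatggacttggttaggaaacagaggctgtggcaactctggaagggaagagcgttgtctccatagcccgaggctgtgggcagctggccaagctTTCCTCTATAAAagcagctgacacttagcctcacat
S100a9: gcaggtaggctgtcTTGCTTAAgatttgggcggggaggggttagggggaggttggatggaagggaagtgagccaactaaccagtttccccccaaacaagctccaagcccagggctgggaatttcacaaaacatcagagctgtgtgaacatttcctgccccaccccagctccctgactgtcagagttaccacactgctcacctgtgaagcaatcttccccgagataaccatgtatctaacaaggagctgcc
Slpi: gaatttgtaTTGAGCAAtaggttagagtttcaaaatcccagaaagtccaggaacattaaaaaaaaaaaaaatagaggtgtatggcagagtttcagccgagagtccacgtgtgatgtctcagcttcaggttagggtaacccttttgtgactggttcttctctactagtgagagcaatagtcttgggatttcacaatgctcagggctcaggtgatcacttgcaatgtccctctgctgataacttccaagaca
The S100a8 window holds TATAAA 30 bases before the start and GAGGAA on the reverse strand (read as TTCCTC) at 170 and 36 bases before it. The S100a9 window holds TTGCTTAA 236 bases before the start. The Slpi window holds TTGCNNAA on the reverse strand (read as TTGAGCAA) 241 bases before its start. Of the windows not printed, Lcn2 has TTGCTCAA 216 bases and GAGGAA on the reverse strand 20 bases before its start. For Trem1 and Csf3r the RefSeq promoter table counts from a transcript start inside the gene span given above (windows chr17:48232489-48232738 and chr4:126024409-126024658), and GAGGAA lies 162 bases before that start in Trem1 and 86 bases before it in Csf3r. Neither TGACGTCA, the cAMP response element, nor its part TGACG was found in any of the 6 windows. Among all 32851 promoter windows of this length in the RefSeq table, 12.4% held TATAAA, 23.3% GAGGAA, 9.56% TTGCNNAA, 1.55% TGACGTCA and 17.8% TGACG. A match of letters is not a measured binding site.

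The neutrophil class was small, with 76 cells in NK-depleted Ptgs-/- tumours, 111 in Ptgs-/- tumours and 205 in Ptgs+/+ tumours. Its cells were shallow, with medians of 965.5, 1156 and 842 UMIs. The label was checked against 10 neutrophil markers that include none of the 6 genes: 8, 9 and 9 of them were seen, with summed levels of 11759, 10347 and 13495 CPM. Ly6g was at 0 in both Ptgs-/- libraries, and the progenitor markers Prtn3, Mpo, Elane and Ctsg were at 0 in all 3. Eosinophil markers (Siglecf and Ccr3, with Prg2 at 0) differed between the libraries. They summed to 850.0 CPM in NK-depleted Ptgs-/-, 116 CPM in Ptgs-/- and 37.5 CPM in Ptgs+/+ neutrophils, and 23.7%, 10.8% and 2.93% of the cells held a UMI of them.

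Of the alarmins, S100a8 averaged 4742 CPM (SD 7783) in NK-depleted Ptgs-/- neutrophils, 9878 CPM (SD 14854) in Ptgs-/- neutrophils and 10728 CPM (SD 11825) in Ptgs+/+ neutrophils. It was seen in 47.4% (35.8% to 59.2%), 64.9% (55.2% to 73.7%) and 84.9% (79.2% to 89.5%) of the cells. S100a9 averaged 4859.6 CPM (SD 9679), 8563 CPM (SD 12373) and 15427 CPM (SD 16629) in the same order, in 48.7% (37.0% to 60.4%), 66.7% (57.1% to 75.3%) and 83.9% (78.1% to 88.7%) of the cells. The typical cell differed more than the mean: the median neutrophil had 0 CPM of S100a8 after NK depletion, 3459 CPM in Ptgs-/- and 6706 CPM in Ptgs+/+ tumours. For S100a9 the medians were 0, 3450 and 10127 CPM. Single cells spread widely in every library, since the highest S100a8 value was 31107, 81109 and 66667 CPM.

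The receptors were lower in level. Csf3r averaged 1360.2 CPM (SD 1592) in NK-depleted Ptgs-/-, 1703 CPM (SD 1696) in Ptgs-/- and 1905 CPM (SD 1872) in Ptgs+/+ neutrophils, and 52.6% (40.8% to 64.2%), 66.7% (57.1% to 75.3%) and 71.7% (65.0% to 77.8%) of the cells held a UMI. Trem1 averaged 424 CPM (SD 875), 771 CPM (SD 1093) and 817 CPM (SD 1301), in 28.9% (19.1% to 40.5%), 48.6% (39.0% to 58.3%) and 40% (33.2% to 47.1%) of the cells. The 2 libraries from mice with NK cells were close to each other in the means of both receptors, and their share intervals overlapped. The Trem1 share in Ptgs-/- neutrophils, 48.6%, lay above the Ptgs+/+ interval. With every cell thinned to 500 UMIs the Trem1 shares were 14.5%, 25.2% and 27.3%.

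Slpi averaged 475 CPM (SD 858) in NK-depleted Ptgs-/-, 797 CPM (SD 1459) in Ptgs-/- and 1567 CPM (SD 2424) in Ptgs+/+ neutrophils. The shares of cells with a Slpi UMI were 30.3% (20.2% to 41.9%), 36.9% (28.0% to 46.6%) and 51.7% (44.6% to 58.7%), and 18.4%, 24.3% and 37.6% after thinning. Lcn2 was rare. It averaged 58.7 CPM on 6 UMIs, 92.2 CPM on 15 UMIs and 185 CPM on 33 UMIs, in 2.63% (0.320% to 9.18%), 7.21% (3.16% to 13.7%) and 11.2% (7.25% to 16.4%) of the cells. Of other genes of neutrophil granules, Ngp and Camp were at 0 UMIs in all 3 libraries, Ltf had 3, 11 and 1 UMIs and Mmp8 had 12, 7 and 21 UMIs.

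**Figure D1:**
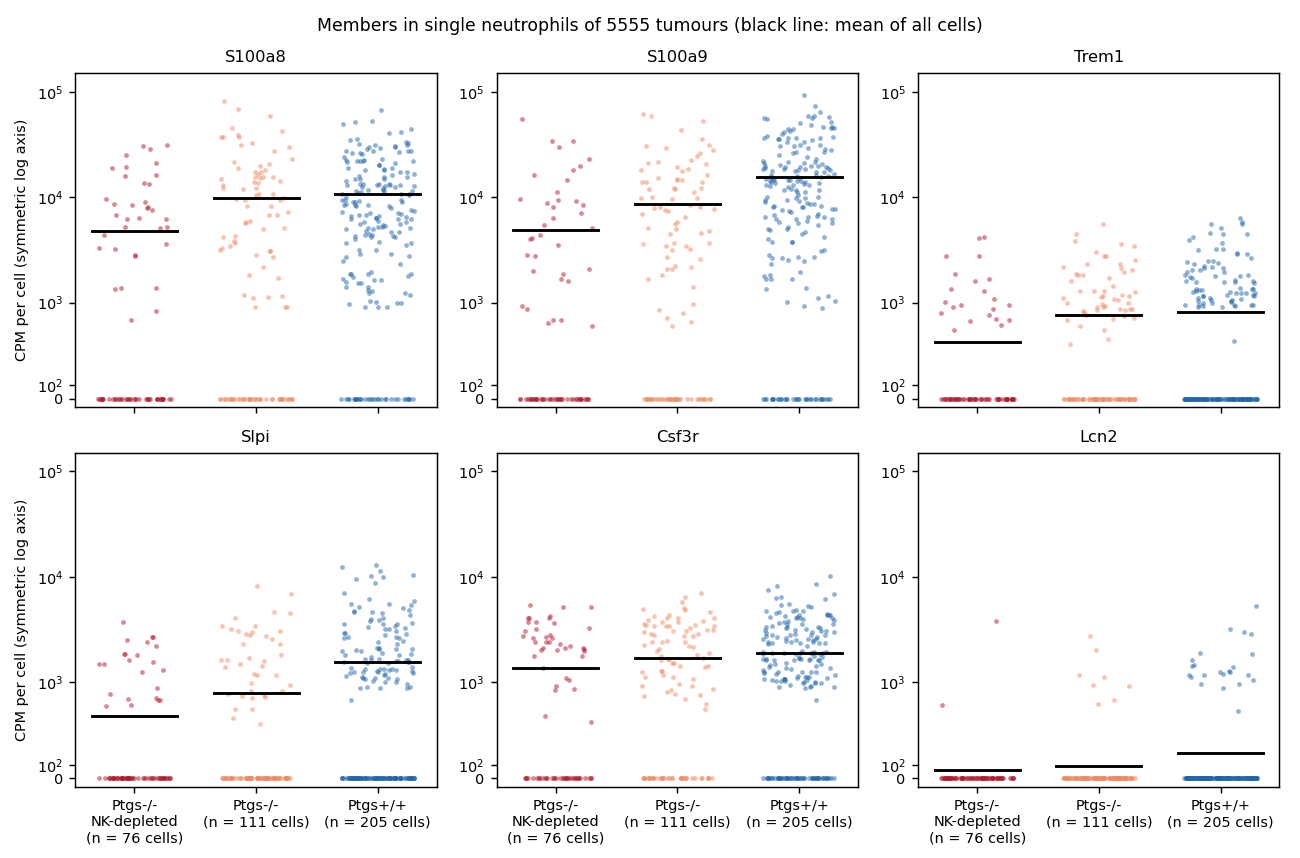
Each panel shows 1 gene and each point 1 neutrophil of the 5555 tumours, with CPM per cell on a symmetric log axis and the mean as a black line, for NK-depleted Ptgs-/- (76 cells), Ptgs-/- (111 cells) and Ptgs+/+ (205 cells) tumours from left to right. The S100a8 and S100a9 points at 0 are most frequent after NK depletion, where only 47.4% and 48.7% of cells held a UMI, and Lcn2 is at 0 in most cells of every library.

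Set against Ptgs+/+ neutrophils, Ptgs-/- neutrophils had lower S100a9, Slpi and Lcn2 and none of the 6 genes higher. The log2 fold was -0.85 for S100a9 (ratio of UMIs per total UMIs 0.576, interval 0.537 to 0.616) and -0.97 for Slpi (0.496, 0.391 to 0.625). Lcn2 had a log2 fold of -0.97, but its UMI ratio of 0.629 had an interval of 0.317 to 1.19. S100a8 (log2 fold -0.12), Trem1 (-0.08) and Csf3r (-0.16) stayed within 1.5-fold. For 3 of 6 lower the background was 13.6% of 3363 genes lower, 35% higher and 48.6% past 1.5-fold in either direction. A difference of this size was thus common among the genes of this comparison. The median of all genes was 0.19 higher on the log2 scale in Ptgs-/- neutrophils. Relative to it the log2 folds were -0.31 for S100a8, -1.04 for S100a9, -0.28 for Trem1, -1.16 for Slpi, -0.35 for Csf3r and -1.16 for Lcn2. All 6 members passed the detection filter, a UMI in 5% or more of a library's neutrophils. When levels were averaged as log2 values per cell instead, 5 of the 6 were past 1.5-fold, 4 lower and 1 higher.

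The alarmin pair did not keep 1 ratio. S100a8 and S100a9 UMIs stood at 1.00 (0.881 to 1.14) in NK-depleted Ptgs-/- neutrophils, 1.14 (1.06 to 1.24) in Ptgs-/- neutrophils and 0.689 (0.650 to 0.730) in Ptgs+/+ neutrophils. Pooled monocytes and macrophages of the same libraries had ratios of 0.965 (0.869 to 1.07), 1.03 (0.929 to 1.14) and 0.625 (0.589 to 0.663). In both classes the S100a8 share of the pair was lowest in the Ptgs+/+ library. In monocytes and macrophages 19, 14 and 74 cells held 89.7%, 88.9% and 95.3% of the alarmin UMIs. Their ratios thus rest on few cells, which the intervals do not cover. Whether that RNA came from neutrophils was not tested.

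Several of the genes were often seen in the same cell. At least 3 of them were seen in 47.4% of NK-depleted Ptgs-/-, 63.1% of Ptgs-/- and 78.5% of Ptgs+/+ neutrophils (31.6%, 47.7% and 67.8% after thinning to 500 UMIs). Cells with none of the 6 made up 36.8% (28 cells), 11.7% (13 cells) and 0.976% (2 cells). All 6 were seen in 2, 4 and 8 cells. Over single neutrophils, S100a8 and S100a9 levels had a Pearson correlation of 0.74 (76 cells), 0.75 (111 cells) and 0.77 (205 cells), while that of S100a8 and Csf3r was 0.69, 0.42 and -0.02. Such correlations share the depth of each cell and are given as descriptions.

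After NK depletion, 5 of the 6 genes were lower in Ptgs-/- neutrophils than in those of mice with NK cells. The log2 folds were -1.06 for S100a8 (UMI ratio 0.578, 0.519 to 0.641), -0.82 for S100a9 (0.659, 0.591 to 0.733), -0.85 for Trem1 (0.648, 0.440 to 0.940), -0.74 for Slpi (0.661, 0.448 to 0.960) and -0.61 for Lcn2 (0.645, 0.205 to 1.76). Csf3r stayed within 1.5-fold at -0.32 (0.949, 0.758 to 1.18). The background was 26.6% of 3809 genes lower, 25.2% higher and 51.9% past 1.5-fold in either direction. The count went to 1 without the cells that held a UMI of Siglecf or Ccr3, eosinophil genes, and to 0 when a UMI of the neutrophil genes Cxcr2, Il1r2 or Mmp9 was required as well. It also went to 0 when cells had to have at least 500 genes. Leaving out cells with Siglecf or Ccr3 took S100a8 from 482 to 462 UMIs after NK depletion. In Ptgs-/- neutrophils it took S100a8 from 1346 to 1119 UMIs. The means of the cells kept were 5991 and 9579 CPM. Among Ptgs-/- neutrophils with and without an alarmin UMI, Siglecf was seen in 7.32% and 6.90%, and Ccr3 in 1.22% and 10.3%.

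The NK-depleted neutrophils comprised cells with and without the alarmins. Of the 76, 33 had no UMI of S100a8 or S100a9, with a median of 636 UMIs per cell, and 43 had at least 1, with a median of 1233. The 43 alarmin cells carried Csf3r in 90.7%, Il1r2 in 86.0%, Hdc in 90.7%, Cxcr2 in 69.8% and Trem1 in 51.2% of cells. The same cells carried Retnlg in 25.6% and G0s2 in 51.2%. They held Siglecf in 4.65% and Ccr3 in 0 of 43 cells (interval up to 8.22%); at this depth a share is one of cells with a UMI, not of cells expressing the gene. The 33 other cells carried Csf3r and Cxcr2 in 3.03% each, Il1r2 and Hdc in 15.2% each and Trem1 in 0 of 33 cells (interval up to 10.6%). In them Ccr3 was seen in 36.4%, Siglecf in 27.3%, Retnlg in 57.6% and G0s2 in 48.5% of cells. The split was made on the alarmins themselves, so their absence there is no finding, and the part of these cells in the comparison of libraries is given by the counts above. When neutrophils were kept only with a UMI of Cxcr2, Il1r2 or Mmp9 and none of Siglecf or Ccr3 (46, 85 and 170 cells), S100a8 averaged 7445, 10728 and 11567 CPM, and Csf3r averaged 2141, 1962 and 1988 CPM in NK-depleted Ptgs-/-, Ptgs-/- and Ptgs+/+ neutrophils.

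Among cell classes with at least 30 cells, neutrophils had the highest mean of each of the 6 genes in each of the 3 tumour libraries. Over all other cells together the margin was 146, 268 and 66.8-fold for S100a8 and 151, 247 and 62.4-fold for S100a9 in NK-depleted Ptgs-/-, Ptgs-/- and Ptgs+/+ tumours. Lcn2 was 164, 129 and 75.3-fold, Csf3r 23.9, 38.0 and 32.0-fold, Trem1 15.3, 32.7 and 10.2-fold and Slpi 19.3, 40.8 and 3.04-fold higher in neutrophils. Margins over the class next in order were smaller. For S100a8 they were 24.9, 22.2 and 29.4-fold, over NK cells, cDC1s (a type of dendritic cell) and NK cells again. S100a9 had the same next classes, at 41.0, 13.3 and 24.3-fold. Lcn2, on 6, 15 and 33 neutrophil UMIs, was 4.34-fold over NK cells, 3.58-fold over cDC1s and 28.8-fold over Monocytes 2. The class next in order was Monocytes 2 for Csf3r in all 3 libraries, at 146, 144 and 152 CPM, with Monocytes 1 and TAM 2 (TAM, tumour-associated macrophage) behind it. For Trem1 it was TAM 2 at 85.6 CPM after NK depletion and 79.2 CPM in Ptgs-/- tumours, and Monocytes 2 at 170 CPM in Ptgs+/+ tumours. For Slpi it was Monocytes 2 at 99.1 and 89.9 CPM in both Ptgs-/- libraries but TAM 2 at 1505 CPM in Ptgs+/+ tumours, only 1.04-fold below neutrophils. Slpi in neutrophils (1557 CPM of summed UMIs, 1379 to 1751) and in TAM 2 (1562 CPM, 1510.4 to 1614) of Ptgs+/+ tumours overlapped within counting error.

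Although neutrophils were 1.96%, 2.37% and 6.28% of the cells, they held 37.0%, 56.7% and 47.3% of all S100a8 UMIs and 42.9%, 46.9% and 45.8% of all Lcn2 UMIs in NK-depleted Ptgs-/-, Ptgs-/- and Ptgs+/+ tumours. They held 9.98%, 17.6% and 31.8% of Csf3r UMIs, and 8.28%, 19.8% and 4.79% of Slpi UMIs. In Ptgs+/+ tumours TAM 2 held 60.1% and TAM 3 held 14.9% of the Slpi UMIs.

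**Figure D2:**
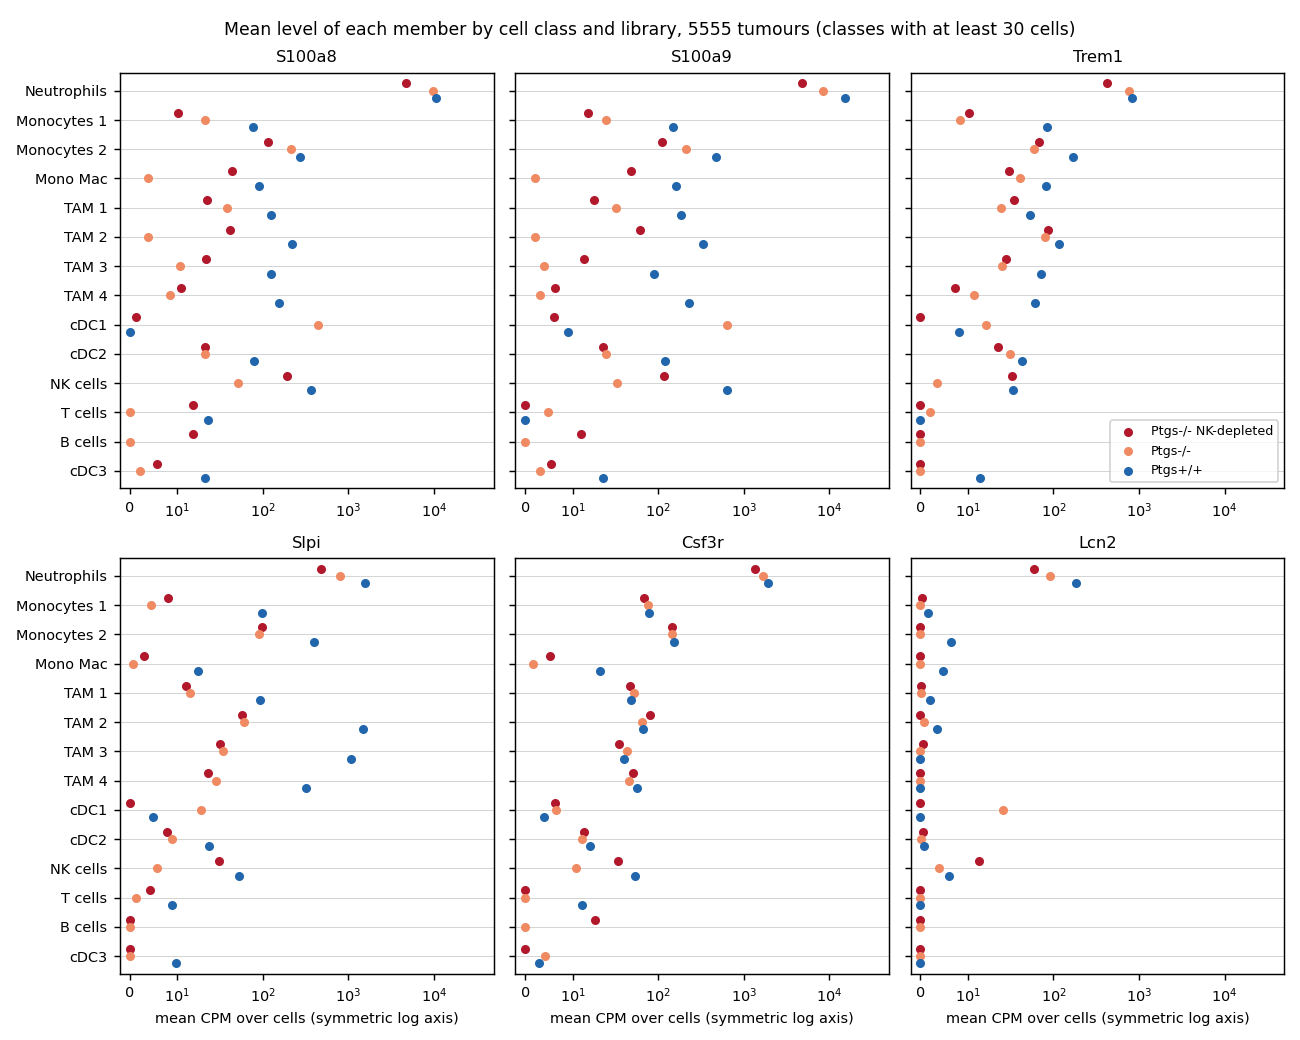
Each panel shows 1 gene, with the mean CPM over cells on a symmetric log axis for each cell class of at least 30 cells, and a point for NK-depleted Ptgs-/-, Ptgs-/- and Ptgs+/+ tumours. Neutrophils have the highest mean in every panel, and the Ptgs+/+ point for Slpi in TAM 2, at 1505 CPM, lies beside that of neutrophils at 1567 CPM.

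B cells and T cells served as a measure of free RNA, which droplets pick up from burst cells. NK cells, which are lymphocytes too, were not used. S100a8 averaged 190 CPM in them after NK depletion and 365 CPM in Ptgs+/+ tumours. S100a8 was seen in 1 of 36, 0 of 44 and 0 of 23 B cells of NK-depleted Ptgs-/-, Ptgs-/- and Ptgs+/+ tumours (median depths 1671.5, 1455.5 and 1130 UMIs). It was seen in 3.67%, 0% and 3.03% of T cells (2372, 2076.5 and 1642 UMIs), and Slpi in 0.917%, 0.467% and 1.52% of T cells. The neutrophil shares of both genes were far above these. Over all cells other than neutrophils, S100a8 was seen in 2.87%, 2.52% and 6.02%, and after NK depletion this was no more than the T cell share. That T cell share came from only 109 cells. They were shallower, at 2372 UMIs against 5514 in the cells outside neutrophils with fewer than 10 S100a8 and S100a9 UMIs. Csf3r was seen in 21.6%, 16.7% and 16.5% of all cells other than neutrophils, against 0%, 0% and 1.52% of T cells.

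Outside neutrophils most alarmin RNA sat in few cells. The cells with at least 10 UMIs of S100a8 and S100a9 together numbered 24 of 3803 in NK-depleted Ptgs-/-, 22 of 4566 in Ptgs-/- and 90 of 3057 in Ptgs+/+ tumours. They held 89.6%, 90.9% and 95.2% of the alarmin UMIs outside the neutrophil class. All but 1 of the 24, all 22 and all 90 also held a UMI of the neutrophil marker list, which averaged 3762, 3175 and 4349 CPM in them and 130, 113 and 980 CPM in the remaining cells. Of the 90, 74 were monocytes or macrophages, and most such cells of that library held a UMI of this list, as given below. The cells with at least 10 alarmin UMIs were also deeper, with medians of 6239.5, 6489 and 4552.5 UMIs against 5514, 4649 and 3758. These few cells set the class means. In cDC1s of Ptgs-/- tumours a lone cell held 336 of the 338 alarmin UMIs, and in NK cells of Ptgs+/+ tumours 10 of 137 cells held 97.6% of them. Whether such droplets held a neutrophil together with another cell was not tested.

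Monocytes and macrophages, the largest class outside neutrophils (3108, 3184 and 2360 cells), were compared for Ptgs-/- over Ptgs+/+ tumours first. Of the 6 genes 5 were lower and none higher in Ptgs-/- tumours, against a background of 6.57% of 7691 genes lower, 8.46% higher and 15% past 1.5-fold in either direction. The pooled class has another mix of clusters in each library: TAM 2 was 240 of 3184 cells in Ptgs-/- and 678 of 2360 in Ptgs+/+ tumours, and Monocytes 1 was 695 and 226 cells. Slpi averaged 25.3 CPM in Ptgs-/- and 660 CPM in Ptgs+/+ cells (log2 fold -4.45, UMI ratio 0.0368, 0.0330 to 0.0409). S100a9 averaged 33.2 CPM in Ptgs-/- and 263 CPM in Ptgs+/+ cells (-2.81, UMI ratio 0.137), and S100a8 averaged 36.5 CPM in Ptgs-/- and 173 CPM in Ptgs+/+ cells (-2.10, UMI ratio 0.226). Trem1 averaged 27.8 CPM in Ptgs-/- and 94.5 CPM in Ptgs+/+ cells (-1.60, UMI ratio 0.312, 0.279 to 0.348). Lcn2 had 2 UMIs in Ptgs-/- and 33 in Ptgs+/+ cells and did not reach 5% of cells in either. Csf3r was within 1.5-fold, with 60.2 CPM in Ptgs-/- and 70.8 CPM in Ptgs+/+ cells. After NK depletion none of the 6 differed past 1.5-fold from Ptgs-/- tumours with NK cells, against a background of 2.43% of 7825 genes. Averaging log2 values per cell left 2 of the 6 past 1.5-fold for Ptgs-/- over Ptgs+/+ cells. Levels after depletion were 33.4 CPM for S100a8, 34.4 for S100a9, 30.6 for Trem1, 28.5 for Slpi and 67.0 for Csf3r.

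The neutrophil markers moved with this comparison. The summed list in pooled monocytes and macrophages was 133 CPM in NK-depleted Ptgs-/-, 130 CPM in Ptgs-/- and 1165 CPM in Ptgs+/+ tumours, with 9 of 10 markers seen in each and Ly6g at 0, in 27.7%, 22.3% and 69.4% of cells. Mmp9 and Il1r2, which are on the list, are also genes of activated macrophages. Leaving out every cell with a UMI of S100a8, S100a9, Cxcr2, Retnlg or Stfa2l1 kept 2943, 3050 and 2092 cells. Slpi then averaged 26.3 CPM in NK-depleted Ptgs-/-, 22.2 CPM in Ptgs-/- and 603 CPM in Ptgs+/+ cells, and the log2 fold of Ptgs-/- over Ptgs+/+ was -4.48. Trem1 averaged 28.1, 26.3 and 82.6 CPM (-1.49), and Csf3r 63.7, 56.5 and 54.7 CPM (0.04), with 64.7% of its Ptgs+/+ UMIs left. Lcn2 kept 3 of 4, 1 of 2 and 5 of 33 UMIs. This leaving-out was added after the data were seen.

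By cluster, Slpi was lower in Ptgs-/- than in Ptgs+/+ tumours in all 7 monocyte and macrophage clusters. In Mono Mac, with 2 and 13 Slpi UMIs, this was lost without the cells holding the neutrophil genes above: the means were then 0.690 CPM in Ptgs-/- and 2.11 CPM in Ptgs+/+ cells, a log2 fold of -0.32. In TAM 2 it averaged 58.1 CPM in NK-depleted Ptgs-/- (8.96% of 201 cells), 60.3 CPM in Ptgs-/- (5% of 240 cells) and 1505 CPM in Ptgs+/+ tumours (51.0% of 678 cells), on 50, 62 and 3498 UMIs. Thinned to 500 UMIs these shares were 4.98%, 1.25% and 28.9%. In TAM 3 the means were 31.9, 34.8 and 1092 CPM and in Monocytes 2 they were 99.1, 89.9 and 396 CPM. The log2 folds of Ptgs-/- over Ptgs+/+ ran from -4.79 in TAM 3 and -4.53 in TAM 2 to -2.08 in Monocytes 2 and -1.997 in Mono Mac, while the background of genes lower was 9.82% in TAM 3, 11.1% in TAM 2, 7.25% in TAM 1, 15.2% in TAM 4, 7.96% in Monocytes 1, 6.78% in Monocytes 2 and 12.2% in Mono Mac. The median of all genes was within 0.1 of 0 on the log2 scale in these clusters except TAM 3 (0.13), where Slpi stood at -4.91 relative to it. Within TAM 2 of Ptgs+/+ tumours the spread was wide: 108 of 678 cells held at least 10 Slpi UMIs, and the highest held 247. The class held 3498 Slpi UMIs, against 104 that its S100a9 UMIs would come with at the Slpi to S100a9 ratio of that library's neutrophils. Neutrophil markers in TAM 2 summed to 279 CPM in NK-depleted Ptgs-/-, 209.7 CPM in Ptgs-/- and 1466 CPM in Ptgs+/+ tumours, and Slpi in TAM 2 cells without the 5 neutrophil genes above averaged 52.1, 53.8 and 1380.3 CPM.

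Trem1 was lower in Ptgs-/- tumours in 6 of these 7 clusters and within 1.5-fold in TAM 2. In Monocytes 1 it averaged 10.4 CPM in NK-depleted Ptgs-/- (4.60% of cells), 8.25 CPM in Ptgs-/- (3.02%) and 82.9 CPM in Ptgs+/+ tumours (24.8%). The log2 fold of Ptgs-/- over Ptgs+/+ there was -2.73. In Monocytes 2 the means were 68.3, 58.8 and 170 CPM, and in TAM 2 they were 85.6, 79.2 and 116 CPM. Csf3r was even across libraries: Monocytes 2 had 146, 144 and 152 CPM and Monocytes 1 had 69.2, 76.7 and 77.9 CPM. It was within 1.5-fold for Ptgs-/- over Ptgs+/+ in all of the 7 clusters except Mono Mac, where it had 1.67 CPM on 5 UMIs in Ptgs-/- and 21.1 CPM on 13 UMIs in Ptgs+/+ cells.

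**Figure D3:**
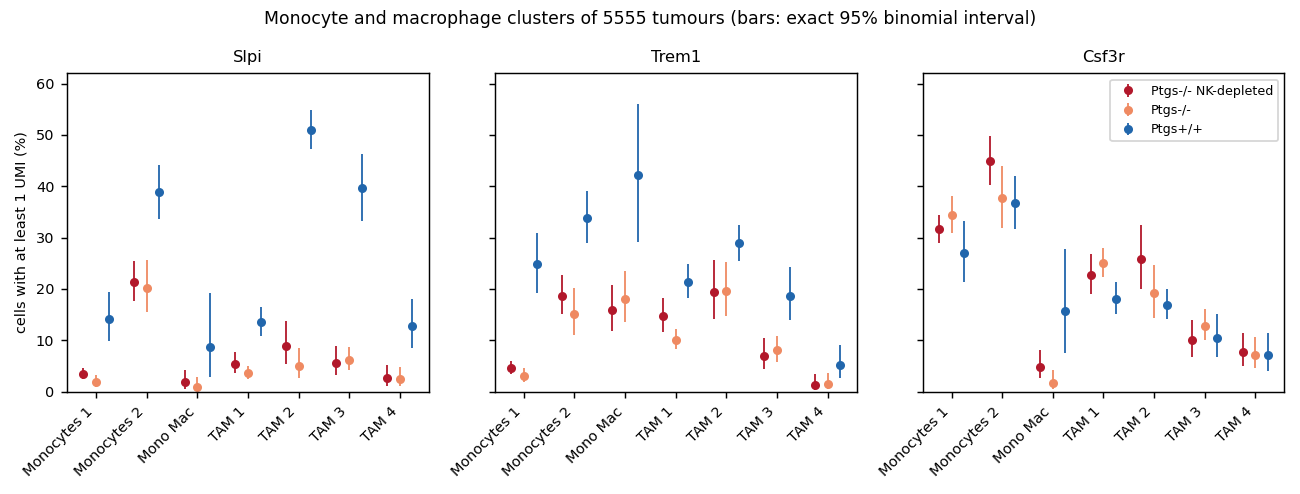
The percent of cells with at least 1 UMI of Trem1, Slpi and Csf3r is shown for the 7 monocyte and macrophage clusters, with exact 95% binomial intervals, for NK-depleted Ptgs-/-, Ptgs-/- and Ptgs+/+ tumours. Slpi in TAM 2 stands at 8.96%, 5% and 51.0%, while Csf3r in Monocytes 2 stands at 44.99%, 37.7% and 36.8%.

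Related genes were read in lists for neutrophil functions, with genes seen in at least 5% of cells of either group. In neutrophils of Ptgs-/- over Ptgs+/+ tumours, 15 surface receptors had a median log2 fold of -0.30 with 4 lower and none higher, and 14 activation and cytokine genes had a median of -0.33 with 5 lower and 3 higher, beside a median of 0.19 for all genes. Cxcl2 and Cxcl3, chemokines that attract neutrophils through CXCR2, averaged 5709 and 507 CPM in Ptgs-/- and 14529 and 2343 CPM in Ptgs+/+ neutrophils (log2 folds -1.35 and -2.20). Fpr2, a formyl peptide receptor, averaged 128 CPM in Ptgs-/- and 298 CPM in Ptgs+/+ neutrophils (-1.19). Higher in Ptgs-/- neutrophils were Ncf1, a subunit of the NADPH oxidase, at 808 CPM against 253 CPM (1.66), Icam1, an adhesion molecule, at 170 CPM against 86.7 CPM (0.93), and S100a10, a partner of annexin A2, at 146 CPM against 66.4 CPM (1.08). In Ptgs-/- and Ptgs+/+ neutrophils Ncf1 had 110 and 51 UMIs, Icam1 27 and 17 and S100a10 17 and 15. The 7 granule genes had a median of -0.07 with 2 higher and 1 lower, the 7 mature neutrophil genes -0.45 with 2 lower, the 8 alarmin and TREM partners -0.32 with 1 lower, and the 5 other S100 genes 0.60 with 3 higher and 1 lower. No gene of the list of proteins related by fold was seen.

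For NK-depleted over NK-replete Ptgs-/- neutrophils, the 14 activation and cytokine genes had a median log2 fold of -0.59 with 7 lower and 2 higher, and the 7 mature neutrophil genes -0.54 with 3 lower and 1 higher, beside -0.02 for all genes. Retnlg, a resistin-like protein of blood neutrophils, was higher after depletion, with 2922 CPM against 700.0 CPM in Ptgs-/- neutrophils (2.05). After depletion it was seen in 57.6% of the neutrophils without an alarmin UMI and 25.6% of those with one. Wfdc17 and Stfa2l1, secreted and cytosolic protease inhibitors by family, averaged 117 and 86.6 CPM after depletion and 549 and 375 CPM in Ptgs-/- neutrophils (-2.19 and -2.05). Cybb, the catalytic oxidase subunit, averaged 318 CPM after depletion and 96.0 CPM in Ptgs-/- neutrophils (1.68), S100a10 averaged 326 and 146 CPM (1.13), and Tlr2, a receptor for bacterial lipoproteins, 138 and 394 CPM (-1.48). The UMIs behind them were few, at 19 and 10 for Cybb, 17 and 17 for S100a10 and 13 and 52 for Tlr2. The 14 receptors had a median of 0.01 with 1 higher and 2 lower, the 8 granule genes 0.10 with 2 higher and 1 lower, the 8 alarmin and TREM partners -0.27 with 1 higher and 2 lower, and the 5 other S100 genes -0.19 with 1 higher and 2 lower. The eosinophil markers given above moved with this comparison.

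In monocytes and macrophages of Ptgs-/- over Ptgs+/+ tumours, 8 of 14 activation and cytokine genes were lower and none higher (median -0.82, beside 0.04 for all genes), as were 6 of 13 surface receptors (-0.50), 3 of 4 mature neutrophil genes (-1.25) and 2 of 6 other S100 genes (-0.22). Of 10 alarmin and TREM partners 5 were lower and 1 higher (-0.60), and of 7 granule genes 3 were lower and 2 higher (-0.51). Mmp9, a gelatinase, averaged 5.30 CPM in Ptgs-/- and 342 CPM in Ptgs+/+ cells (-5.07), Il1r2, the decoy receptor of IL-1, 31.8 and 445 CPM (-3.61), and Cxcl3 23.3 and 327 CPM (-3.55). Higher in Ptgs-/- cells were Ncf1 at 220 CPM against 75.7 CPM (1.48), Trem2, a lipid receptor of macrophages, at 225 CPM against 123 CPM (0.84), and Cybb at 958 CPM against 610 CPM (0.65). Trem1 and Trem2, which share the adaptor DAP12, stood on opposite sides in this class.

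The 3 highest and 3 lowest genes of all in neutrophils rested on few UMIs. In Ptgs-/- over Ptgs+/+ neutrophils the lowest were Phf8, Wbp1l and Cyth1 (log2 folds -3.65, -3.57 and -3.23, on 1, 2 and 2 UMIs in Ptgs-/- cells) and the highest Bcl2a1a, Matk and Arhgef3 (3.12, 3.07 and 2.88, on 4, 3 and 2 UMIs in Ptgs+/+ cells). After NK depletion Matk (-3.45) and Ctcf (-3.34) were among the lowest with Ppm1g at 0 UMIs against 15, and Gapt (3.90) was among the highest with Serpinb2 at 29 UMIs against 0 and Adora2a at 11 against 0. None of the 6 members was among them.

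Over the 41 pairs of class and library with at least 30 cells, S100a8 and S100a9 had nearly the same pattern (Pearson r = 0.97 on the log2 scale, and 0.93 over the 38 pairs without neutrophils). Points of 1 library share its depth and free RNA, so the correlations are descriptions. Among 10294 genes, G0s2 (0.92 and 0.91), Wfdc21 (0.89 and 0.87) and Cxcr2 (0.87 and 0.85) were most like S100a8 and S100a9. Lcn2 was most like Wfdc21 (0.94), Chil1 (0.94) and Retnlg (0.92). Csf3r was most like Slfn4, Trem3 and H3f3b (0.87 each), Trem1 most like Hcar2 (0.91), Msrb1 (0.90) and Cd33 (0.89), and Slpi most like Gsr (0.93), Sgms2 (0.89) and Hdc (0.87). Between members, Trem1 and Slpi stayed alike without neutrophils (0.85 with and 0.78 without), whereas Csf3r and Lcn2 (0.67 and 0.10) and Slpi and Lcn2 (0.57 and 0.24) did not.

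The CT26 library had no class called neutrophils, and the alarmins were scattered there too. Of 8987 cells, 66 held at least 10 alarmin UMIs and 90.0% of all of them. The class with the highest means was the one the annotation calls moDC, with 325 CPM of S100a8 and 710 CPM of S100a9. Within it 9 of 427 cells held 92.8% of the alarmin UMIs, and neutrophil markers averaged 16432 CPM in these 9. Slpi had another source. It averaged 1803 CPM in plasmacytoid dendritic cells (pDCs, the interferon-producing type), in 160 of 204 cells or 78.4% (72.1% to 83.9%, and 46.6% after thinning), with 1 UMI each of S100a8 and S100a9 in the class. The next class was Monocyte 2 with 97.9 CPM. Trem1 was highest in Monocyte 1 with 61.6 CPM (16.6% of cells), and Csf3r in moDC with 86.8 CPM (9.60%) and Monocyte 1 with 62.1 CPM (17.3%). Pooled CT26 monocytes and macrophages (5180 cells) averaged 50.1 CPM of S100a8, 77.7 of S100a9, 27.9 of Trem1, 51.2 of Slpi, 46.4 of Csf3r and 0.903 of Lcn2. Strain, tumour line and day all differ from the 5555 libraries, so no fold is given.

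**Figure D4:**
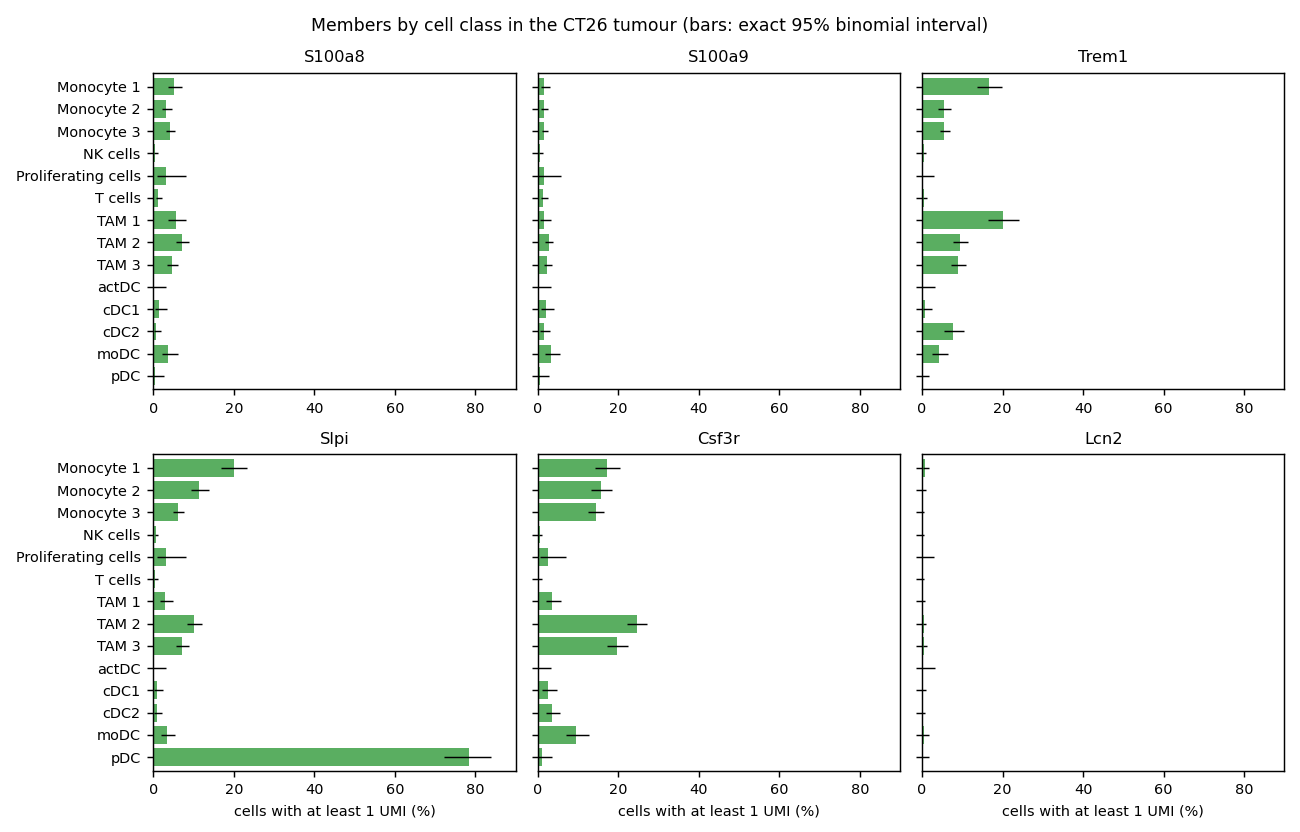
The percent of cells with at least 1 UMI of each member is shown by cell class of the CT26 tumour, with exact 95% binomial intervals as error bars. Slpi in plasmacytoid dendritic cells, at 78.4%, exceeds every other bar.

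The cultures held dendritic cells and no neutrophil class, yet S100a8 was seen in 13.5% to 30.8% of the cells of every class and condition. Thinned to 500 UMIs these shares were 1.03% to 10%. Before thinning, 32.2% of cells with Ptgs-/- tumour cells, 32.1% with Ptgs+/+ tumour cells and 34.96% untreated held 1 to 3 alarmin UMIs. No class of the cultures served as a measure of free RNA, and whether such UMIs were free RNA was not tested. At full depth 32 of 3584 cells with Ptgs-/- tumour cells, 41 of 3884 with Ptgs+/+ tumour cells and 19 of 3344 untreated cells held at least 10 alarmin UMIs, and with them 92.6%, 96.3% and 88.0% of all alarmin UMIs. In the pDC class (312, 200 and 200 cells) S100a8 averaged 1146 CPM with Ptgs-/- cells, 4388 CPM with Ptgs+/+ cells and 673 CPM untreated, S100a9 2398, 6637 and 939 CPM, and Lcn2 116, 377 and 20.04 CPM. There 8, 15 and 2 cells held 98.7%, 99.7% and 97.2% of the alarmin UMIs. In proliferating cDC2s (260, 182 and 137 cells) S100a8 averaged 441, 2023 and 382 CPM, S100a9 608, 2944 and 466 CPM and Lcn2 44.3, 138 and 15.7 CPM, with 11, 12 and 2 such cells.

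For Ptgs-/- over Ptgs+/+ tumour cells in culture, 17 of the 36 pairs of class and gene were past 1.5-fold, 12 lower and 5 higher, and 6 were when log2 values were averaged per cell. In pDCs 4 of 6 genes were lower (background 15.8% of genes past 1.5-fold in either direction): S100a8 (log2 fold -1.93), S100a9 (-1.47), Lcn2 (-1.66), and Trem1, which was at 0 UMIs with Ptgs-/- cells and at 6.10 CPM with Ptgs+/+ cells. In proliferating cDC2s 4 of 6 differed (5.96%): S100a8 (-2.19), S100a9 (-2.27) and Lcn2 (-1.53) were lower and Slpi (1.48) was higher. In cDC1s 4 were higher (1.65%), of which S100a8 (1.01) and S100a9 (0.85) rested on 8 and 4 cells with at least 10 alarmin UMIs. In cDC2s (0.715%) S100a8 (-0.64) and S100a9 (-0.68) were lower, with 1 of 789 and 4 of 750 cells holding at least 10 alarmin UMIs, and with cells weighted by depth S100a9 turned to 0.0651. In mDCs (3.83%) S100a8 (-1.05) and S100a9 (-1.08) were lower, where 4 of 1060 cells with Ptgs+/+ tumour cells held 1288 of 1669 alarmin UMIs and no cell with Ptgs-/- tumour cells reached 10. In proliferating cDC1s (1.85%) S100a8 (-0.99) was lower, on 4 of 687 and 2 of 581 such cells. Averaged log2 values gave 0.14 for S100a9 in mDCs and 0.000498 for S100a8 in proliferating cDC1s. Of the 17, 3 were genes seen in under 5% of the cells, which the background leaves out: Trem1 in pDCs and Slpi and Lcn2 in cDC1s.

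For Ptgs+/+ tumour cells over untreated cultures, 13 of 36 pairs were past 1.5-fold, 10 higher and 3 lower, against 8 with log2 values averaged per cell and 23 with 1 CPM added in place of 5. In pDCs S100a8 (2.70), S100a9 (2.81) and Lcn2 (3.93) were higher (background 29.6% past 1.5-fold). In proliferating cDC2s the same genes were higher (2.39, 2.65 and 2.78, background 18.9%), as S100a8 (1.32) and S100a9 (1.27) were in proliferating cDC1s (18.4%). There 2 of 581 cells with Ptgs+/+ tumour cells and 3 of 965 untreated cells held 91.0% and 78.4% of the alarmin UMIs, and with log2 values averaged per cell the folds were 0.05 for S100a8 and -0.20 for S100a9. In mDCs S100a8 (-2.23), S100a9 (-2.15) and Lcn2 (-1.20) were lower (28.9%), where a lone untreated cell held 1223 of 1334 alarmin UMIs. Lcn2 was higher in cDC1s (0.74, 19.6%), but stood at -0.0128 with log2 values averaged per cell. In cDC1s and mDCs Lcn2 was seen in under 5% of cells. The median of all genes lay 0.11 to 0.28 lower on the log2 scale in cultures with Ptgs+/+ cells, and relative to it S100a8 in pDCs stood at 2.80 and in mDCs at -1.95. With Ptgs-/- tumour cells the median lay 0.06 to 0.23 lower than in untreated cultures.

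Trem1 had a pattern of its own in the cDC2 class. It averaged 5.09 CPM with Ptgs-/- cells (4.44% of cells), 8.22 CPM with Ptgs+/+ cells (8.53%) and 1.36 CPM untreated (1.66%), on 46, 79 and 13 UMIs. With Ptgs+/+ cells over untreated the log2 fold was 1.06 (UMI ratio 5.63, 3.11 to 11.05), the only member past 1.5-fold in that class beside 8.33% of all genes. With Ptgs-/- over Ptgs+/+ cells Trem1 there was within 1.5-fold. Slpi in proliferating cDC2s was at 411 CPM (45.4% of cells) with Ptgs-/- cells, 144 CPM (34.1%) with Ptgs+/+ cells and 95.4 CPM (27.7%) untreated, and the thinned shares were 13.5%, 4.95% and 4.38%.

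In the pDC and proliferating cDC2 classes of the cultures, the cells with at least 10 alarmin UMIs often carried granule genes as well. Such cells in the other classes were not read gene by gene. Among cells annotated as pDC, the 25 with at least 10 alarmin UMIs held Lcn2 in 96%, Slpi in 80%, Ngp in 72%, Prtn3 in 56%, Mmp8 in 48% and Cxcr2 in 32% of cells. They held the pDC genes Siglech in 12%, Cox6a2 in 16% and Ccr9 in 0 of 25. Of the 687 other cells Siglech was seen in 63.9%, Cox6a2 in 63.6% and Ccr9 in 33.5%, Lcn2 in 2.47% and Ngp in 1.16%. Likewise the 25 alarmin cells among proliferating cDC2s held Lcn2 in 96%, Slpi in 88%, Prtn3 in 84%, Mmp8 in 56% and Ngp in 44%, while the 554 others held Lcn2 in 3.79%, Slpi in 35.4%, Prtn3 in 39.5%, Mmp8 in 6.32% and Ngp in 2.53%. Of cDC2 markers, Mgl2 was seen in 48% of these alarmin cells and 37.0% of the others, Clec10a in 28% and 48.7%, and Cd209a in 8% and 20.9%. The granule gene Mpo was seen in 4% and 3.97%. Ngp and Lcn2 are genes of specific granules, made while neutrophils mature in the marrow, and Prtn3 of the earlier azurophil granules. Csf3r was seen in 12% and 8% of these alarmin cells. They were chosen by their alarmins, so only the other genes are described, and what kind of cell they are was not tested.

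**Figure D5:**
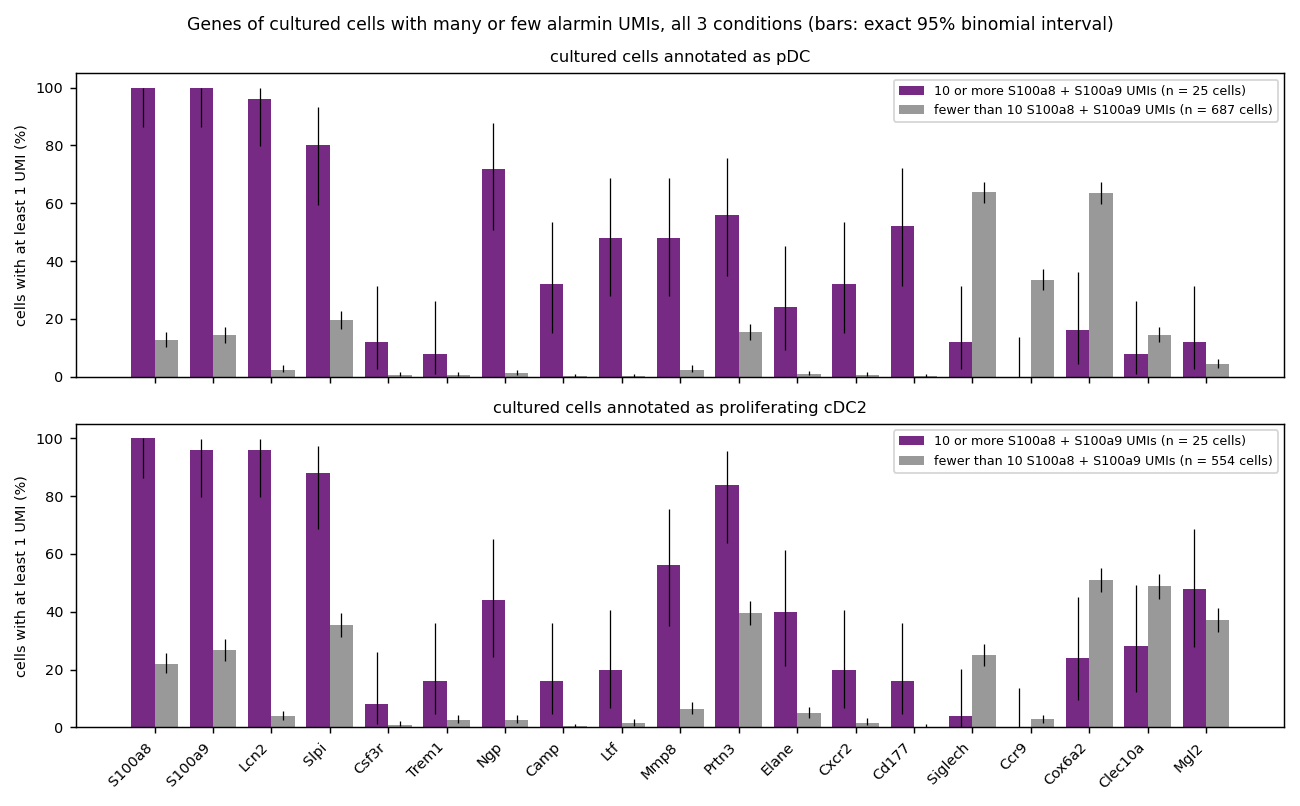
The percent of cells with at least 1 UMI of each gene is shown for cultured cells annotated as pDC (top) and proliferating cDC2 (bottom), all 3 conditions together, with bars for cells that hold at least 10 S100a8 and S100a9 UMIs (25 cells in each class) and for cells with fewer (687 and 554), and exact 95% binomial intervals. Granule genes stand high in cells with at least 10, such as Lcn2 at 96% in both classes, and Siglech stands high in the pDC cells with fewer alarmin UMIs, at 63.9%.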

How the data were processed

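Single-cell RNA was measured in 5 libraries. The deposited matrices hold log2 values per cell: tested on the values, they are log2(CPM + 1), and UMI counts were recovered from them (at least 99.9% of values came out whole). Per the submitters' processing notes, the authors used Cell Ranger 3.0.2, Partek and the mm10 build; further steps are not given in the sources used here. Cell types are the deposited annotation. Of 11872 cells of the 5555 matrix, 36 without annotation and 18 with a barcode borne by more than 1 cell were left out, and 11818 were used.

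From these, mean CPM per class and library, shares of cells with a UMI (exact Clopper-Pearson intervals) and UMI ratios (exact conditional binomial intervals) were computed with Python 3.11.15, numpy 2.4.6, pandas 2.3.3 and scipy 1.17.1, and plotted with matplotlib 3.10.9. Classes needed 30 cells. A log2 fold is that of mean CPM + 5. With 1 library per group no test was made. Background shares cover genes with a UMI in at least 5% of cells of either group. Cells were also thinned to 500 UMIs. The steps were tested on simulated data.

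The 6 members were always named. Beside them the text names the 3 highest and 3 lowest genes by fold of the lists (seen in at least 10% of cells of either group) and of all neutrophil genes, and the 3 genes most like each member among those reaching 20 CPM. Markers and genes of cells split by alarmin UMIs were named after their values were seen. The members and lists were chosen with earlier results of these data known. Promoters and gene positions are from RefSeq, GRCm38.p6.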

Additional observations from a re-analysis of the deposited data

Results flagged for a closer look

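The same contrast had opposite signs in different cell classes for S100a8, S100a9 and Slpi, and none of these differences was tested, since each group is 1 library or 1 hashtagged condition. Values are log2 folds of mean CPM + 5. In cultures with Ptgs+/+ cells over untreated cultures, S100a8 stood at -2.23 in mDCs and 2.70 in pDCs, and S100a9 at -2.15 and 2.81. With Ptgs-/- cells over untreated cultures, S100a8 stood at -3.28 in mDCs and 0.76 in pDCs, and S100a9 at -3.23 and 1.35. With Ptgs-/- over Ptgs+/+ cells, S100a8 stood at -2.19 in proliferating cDC2s and 1.01 in cDC1s, and S100a9 at -2.27 and 0.85. In these classes a few cells held most of the alarmin UMIs, except in mDCs with Ptgs-/- cells. There no cell reached 10 of them, and the 175 UMIs were spread over cells with at most 3 each. The untreated mDC value came mostly from a lone cell with 1223 of 1334 UMIs.

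In tumours, Ptgs-/- over Ptgs+/+ gave -4.67 for S100a8 and -5.58 for S100a9 in TAM 2, against 6.49 and 5.52 in cDC1s, where a lone Ptgs-/- cell held 336 of 338 alarmin UMIs. The S100a8 value of 6.49 is a fitted one against 0 UMIs in Ptgs+/+ cDC1s and no bound; set against 3 UMIs in that class, S100a8 was at least 36.9-fold higher. NK-depleted over other Ptgs-/- tumours gave -6.15 for S100a8 in cDC1s, on 1 and 138 UMIs (UMI ratio 0.00453, 0.000114 to 0.0257), and 1.79 in NK cells, where 2 of 45 and 4 of 510 cells held 52 of 53 and 128 of 133 alarmin UMIs. For Slpi it gave -0.74 in neutrophils and 1.75 in NK cells, the NK cell value on 5 and 9 UMIs. Only 45 cells annotated as NK cells were left after depletion, beside 510 in Ptgs-/- tumours with NK cells.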

How the results depend on the processing

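Of 714 single-gene folds recomputed under the alternatives, 587 were classed as close to their value and 121 as moved. A further 6, all past 1.5-fold at first, changed direction. The changes of direction were Lcn2 in neutrophils for NK-depleted over other Ptgs-/- tumours among strictly chosen neutrophils (0.21), S100a9 in cDC2s for Ptgs-/- over Ptgs+/+ tumour cells with cells weighted by depth (0.0651), and 4 under averaged log2 values per cell: Lcn2 in cDC1s (-0.0128) and S100a9 in proliferating cDC1s (-0.20) for Ptgs+/+ cells over untreated, and S100a9 in mDCs (0.14) and S100a8 in proliferating cDC1s (0.000498) for Ptgs-/- over Ptgs+/+ cells. The cause was not tested. Folds within 1.5-fold that changed sign were not counted among these 6. Csf3r in neutrophils was such a case for NK-depleted over other Ptgs-/- tumours. It averaged 1360 CPM after depletion and 1703 CPM in the other Ptgs-/- neutrophils, but 2141 and 1962 CPM among strictly chosen ones. Averaged log2 values gave counts past 1.5-fold of 5 in place of 3 for neutrophils and 2 in place of 5 for monocytes and macrophages (Ptgs-/- over Ptgs+/+ tumours), and in cultures 8 in place of 13 and 6 in place of 17. Adding 1 CPM gave 23 in place of 13. For NK-depleted over other Ptgs-/- neutrophils, 5 became 0 with cells of at least 500 genes, 1 without cells holding Siglecf or Ccr3, and 0 with Cxcr2, Il1r2 or Mmp9 required too, the last 2 chosen after seeing the data.

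Thinning to 500 UMIs put the neutrophil shares at 14.5%, 25.2% and 27.3% for Trem1 and 18.4%, 24.3% and 37.6% for Slpi (NK-depleted Ptgs-/-, Ptgs-/-, Ptgs+/+), and for Csf3r at 50.5% in Ptgs-/- and 58.0% in Ptgs+/+ tumours. Depth limits Lcn2 most, with 6 to 33 UMIs in neutrophils. No paired analysis was possible because each group has 1 library.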
